A study of Mus musculus with 6 samples.

Results

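The unfolded protein response and the integrated stress response were examined through 30 genes in liver RNA from 6 male BALB/c mice. The genes were fixed as a list by name, without use of their measured values, and the list was drawn up with earlier results of these data known. All 30 had probes on the array, 55 in all, and all 30 were well above background on all 6 arrays, among 18908 genes tested. Where a gene had several probes, the one with the highest mean was read, on the scale of the normalized log2 signal.

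The control group was 3 mice on sterile water, and the exposed group was 3 mice given 100 µg/L microcystin-LR (MC-LR) in their water. Hepatocytes take up this cyanobacterial toxin, which inhibits serine/threonine protein phosphatases. Both groups were treated for 12 months from 6 weeks of age, on the same standard pellet diet, and the only stated difference is the toxin in the water. Each mouse gave 1 liver RNA and 1 single-colour Agilent array. The 3 mice of a group are described as independent, and precision is limited by the number of arrays. Controls 1 and 2 shared slide 1, while control 3 and the 3 MC-LR arrays shared slide 2. In bulk liver, fewer cells of a type and less RNA per cell cannot be told apart.

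Secreted and membrane proteins fold in the endoplasmic reticulum (ER), and the hepatocyte, which secretes most plasma proteins, carries a heavy folding load. When unfolded proteins build up, sensors in its membrane respond. ATF6 is cut and moves to the nucleus, IRE1 (encoded by Ern1) splices Xbp1 mRNA, and PERK (encoded by Eif2ak3) phosphorylates the initiation factor eIF2 alpha. ATF6 and XBP1 raise ER chaperones and the machinery of ER-associated degradation, while phosphorylated eIF2 alpha favours translation of ATF4, which raises genes of amino acid supply, redox balance and cell death. Cleavage, splicing and phosphorylation are not measured by these arrays. The 30 genes were therefore described in 4 sets, with 14 ER chaperones and folding enzymes, 5 degradation genes, 4 sensors and proximal factors, and 7 genes of the ATF4 arm.

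The promoters of the members differ along the same division, which was drawn by known regulation through ATF6, XBP1 and ATF4. Motifs of these factors are therefore no independent support for it. The ER stress response element (ERSE) pairs CCAAT, bound by NF-Y, with CCACG, bound by ATF6 or XBP1, with 9 bases of any kind between them. It was searched on both strands from 250 bases before to 50 bases after each gene's start, in RefSeq promoter windows of GRCm38.p6 that matched 26 of the 30 members. It occurred in 8 of these 26, of which 7 were among the 12 chaperone and folding genes with a window, 1 was the degradation gene Syvn1, and 0 were among the 7 ATF4 genes. Over all windows, 0.119% held it. The shorter core TGACGTG, bound by XBP1 and ATF6, occurred in 1 member, Hspa5, against 2.01% of all windows. The ERSE copies are shown to compare the members that hold one, the chaperone genes first and Syvn1 last, with CCAAT and CCACG in capitals.
Hspa5, chr2:34772020-34772048, + strand: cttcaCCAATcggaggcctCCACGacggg
Hsp90b1, chr10:86705528-86705556, + strand: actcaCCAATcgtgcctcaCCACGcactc
Hsp90b1, chr10:86705633-86705661, - strand: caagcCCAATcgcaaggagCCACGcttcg
Calr, chr8:84847070-84847098, + strand: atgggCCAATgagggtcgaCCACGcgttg
Canx, chr11:50325795-50325823, - strand: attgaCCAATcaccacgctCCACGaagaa
Pdia6, chr12:17266486-17266514, + strand: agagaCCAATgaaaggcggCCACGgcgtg
Dnajc3, chr14:118937822-118937850, + strand: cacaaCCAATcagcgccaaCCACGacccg
Creld2, chr15:88819515-88819543, - strand: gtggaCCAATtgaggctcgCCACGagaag
Syvn1, chr19:6046527-6046555, + strand: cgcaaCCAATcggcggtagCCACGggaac

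A second form, ERSE-II (ATTGG, 1 base of any kind, then CCACG), occurred in Herpud1 and Dnajb11, against 0.0365% of all windows. A core of the C/EBP-ATF response element bound by ATF4, TGATGNAA, occurred in 4 of the 7 ATF4 genes (Asns, Atf3, Chac1 and Trib3), in Herpud1, and in 0 of the 12 chaperone genes. Over all windows 3.97% held that core. The copies that lie before the gene's start are shown with the fixed bases in capitals, and Herpud1 is the only member found with both kinds. A match describes letters in a window and does not show binding.
Herpud1 ERSE-II, chr8:94386372-94386392, + strand: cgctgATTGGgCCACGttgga
Herpud1, chr8:94386312-94386329, - strand: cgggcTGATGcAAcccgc
Asns, chr6:7693220-7693237, - strand: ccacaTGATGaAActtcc
Atf3, chr1:191183431-191183448, + strand: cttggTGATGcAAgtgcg
Chac1, chr2:119351044-119351061, - strand: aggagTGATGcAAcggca

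Members of the list stood lower in the MC-LR livers in 26 of 30 cases, where 51.5% of all genes tested lay below 0. The median log2 difference (MC-LR minus control) was -0.27 over the members and -0.0088 over all genes. No single member passed the test: 0 of 30 had an adjusted p under 0.05 by limma, the linear model fitted to all 18908 genes, where 0.0159% of all genes passed. At an unadjusted p under 0.05, 8 members were lower and 0 higher by limma, where 5.4% and 7.45% of all genes were. In 8 members all 3 MC-LR arrays lay below all 3 controls, against 9.2% of all genes, and in 0 members did they lie above, against 11.2%.

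**Figure D1:**
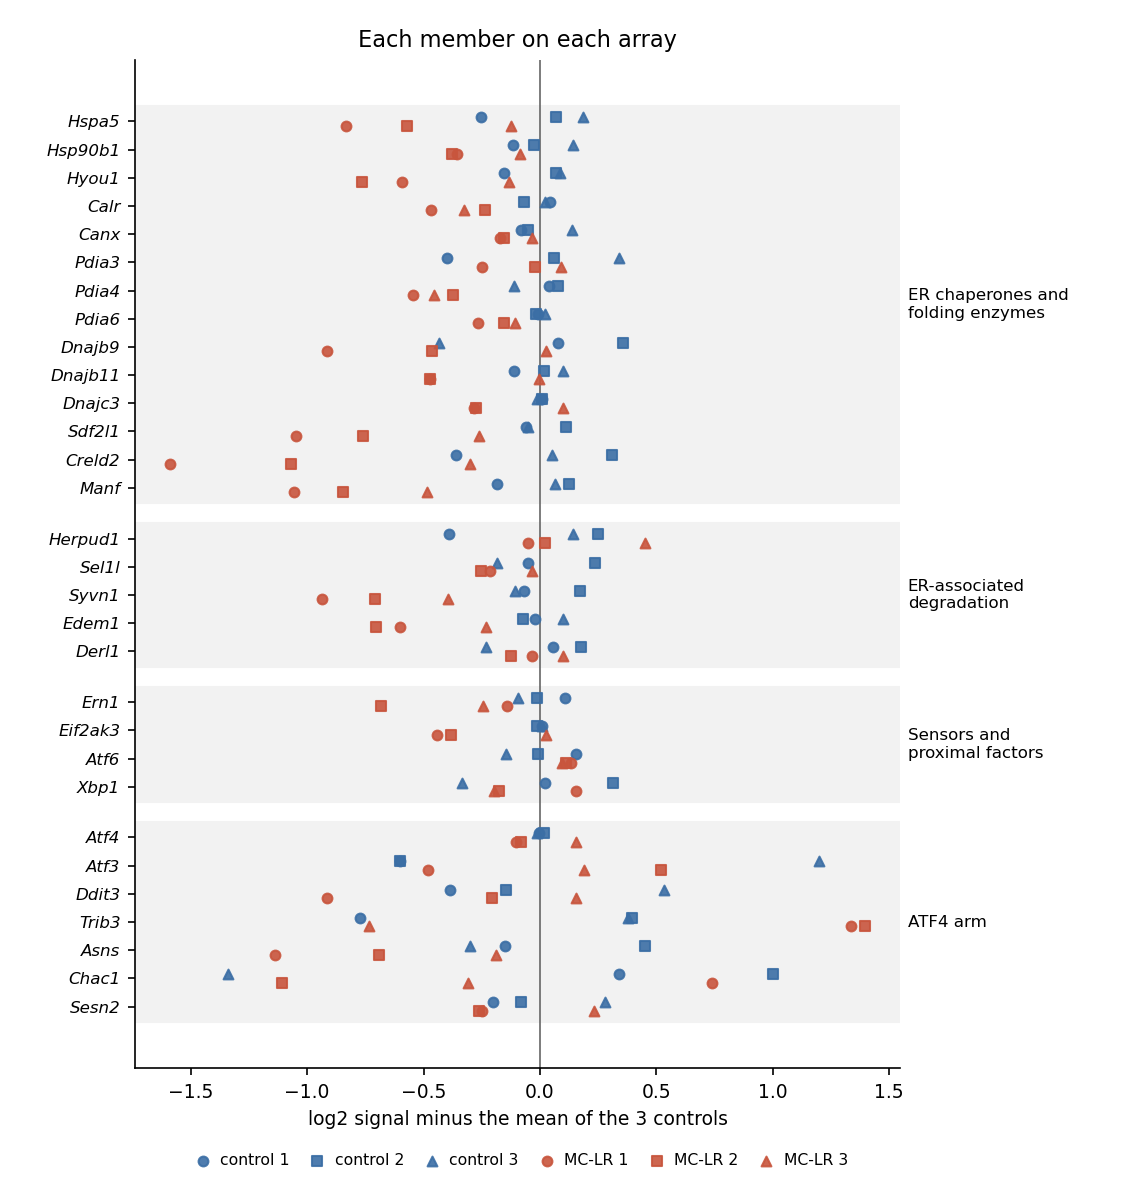
Log2 signal of each of the 30 members on each array, minus the mean of the 3 controls (x axis), with genes in rows grouped by arm and a symbol for each array. All 3 MC-LR arrays lie to the left of all controls for 5 of the 14 chaperones, against 9.2% of all genes. MC-LR 3 is the rightmost MC-LR array for 12 of them, against 37.5% of all genes, and the ATF4 arm is mixed.

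The ER chaperones and folding enzymes carried most of the pattern. All 14 lay below 0, or 13 with median scaling, where Pdia3 stood at 0.033, and 13 without control 3 or without MC-LR 1. The median log2 difference was -0.40, in a range from -0.98 to -0.06. Of these, 6 were lower at an unadjusted p under 0.05 by limma, against 5.4% of all genes. The adjusted threshold was passed by 0 of them, against 0.0159% of all genes in either direction.

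Hspa5 encodes BiP, the main ER chaperone, which also holds the sensors inactive in unstressed cells. It stood at 14.83, 15.15 and 15.27 in controls 1 to 3 and at 14.25, 14.51 and 14.96 in MC-LR 1 to 3. The groups overlapped, since MC-LR 3 lay above control 1. The log2 difference was -0.51 ± 0.22 (SE, n = 3 per group; adjusted p = 0.396, limma). Its probe lies at chr2:34631630-34631689 of mm9, the build of the array's own annotation. Exon and UTR annotation was not used here.

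Manf, a small secreted factor that binds BiP and is induced by ER stress, had the smallest p of the members. It stood at 12.92, 13.23 and 13.17 in the controls and at 12.05, 12.26 and 12.62 with MC-LR. The groups did not overlap, and the difference was -0.79 ± 0.18 (SE; adjusted p = 0.246, limma). Its probe lies at chr9:106791278-106791337 of mm9.

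Creld2, an ER-stress-induced disulphide isomerase, had the largest difference of the 30 and is singled out for that after its values were seen. It stood at 14.11, 14.78 and 14.52 in the controls and at 12.88, 13.40 and 14.17 with MC-LR. MC-LR 1 and 2 lay below every control, while MC-LR 3 lay just above control 1. The difference was -0.98 ± 0.35 (SE; adjusted p = 0.353, limma), so the MC-LR level was 0.51 times that of controls. Sdf2l1, which acts with the BiP cycle, stood at 11.45, 11.62 and 11.46 against 10.46, 10.75 and 11.25. Its groups did not overlap, with a difference of -0.69 ± 0.21 (SE; adjusted p = 0.303).

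Among the oxidoreductases, Pdia4 stood at 11.25, 11.29 and 11.10 in the controls and at 10.67, 10.84 and 10.76 with MC-LR. The groups lay well apart and the difference was -0.46 ± 0.10 (SE; adjusted p = 0.248, limma). Pdia6, another protein disulphide isomerase, stood at 15.26, 15.25 and 15.29 against 15, 15.11 and 15.16. Its groups did not overlap either, although the difference was only -0.17 ± 0.09 (SE; adjusted p = 0.475). Pdia3, the partner of calnexin and calreticulin for glycoproteins, had a difference of -0.06 and overlapping groups, the nearest to 0 of the chaperone set.

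Calr, the lectin chaperone calreticulin, stood at 14.25, 14.14 and 14.23 in the controls and at 13.74, 13.97 and 13.88 with MC-LR. The groups did not overlap and the difference was -0.35 ± 0.10 (SE; adjusted p = 0.301, limma). Its membrane-bound relative Canx differed by -0.12. Hyou1, a nucleotide exchange factor of BiP, differed by -0.50, and Hsp90b1, the ER form of HSP90, by -0.27. The BiP co-chaperones Dnajb9, Dnajb11 and Dnajc3 differed by -0.45, -0.32 and -0.15. Dnajb9 stood at -0.014 with slide as a block and at -0.22 without MC-LR 1. In Canx, Hyou1, Hsp90b1 and these co-chaperones the groups overlapped, and adjusted p ran from 0.360 for Hyou1 to 0.658 for Canx and Dnajc3.

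**Figure D2:**
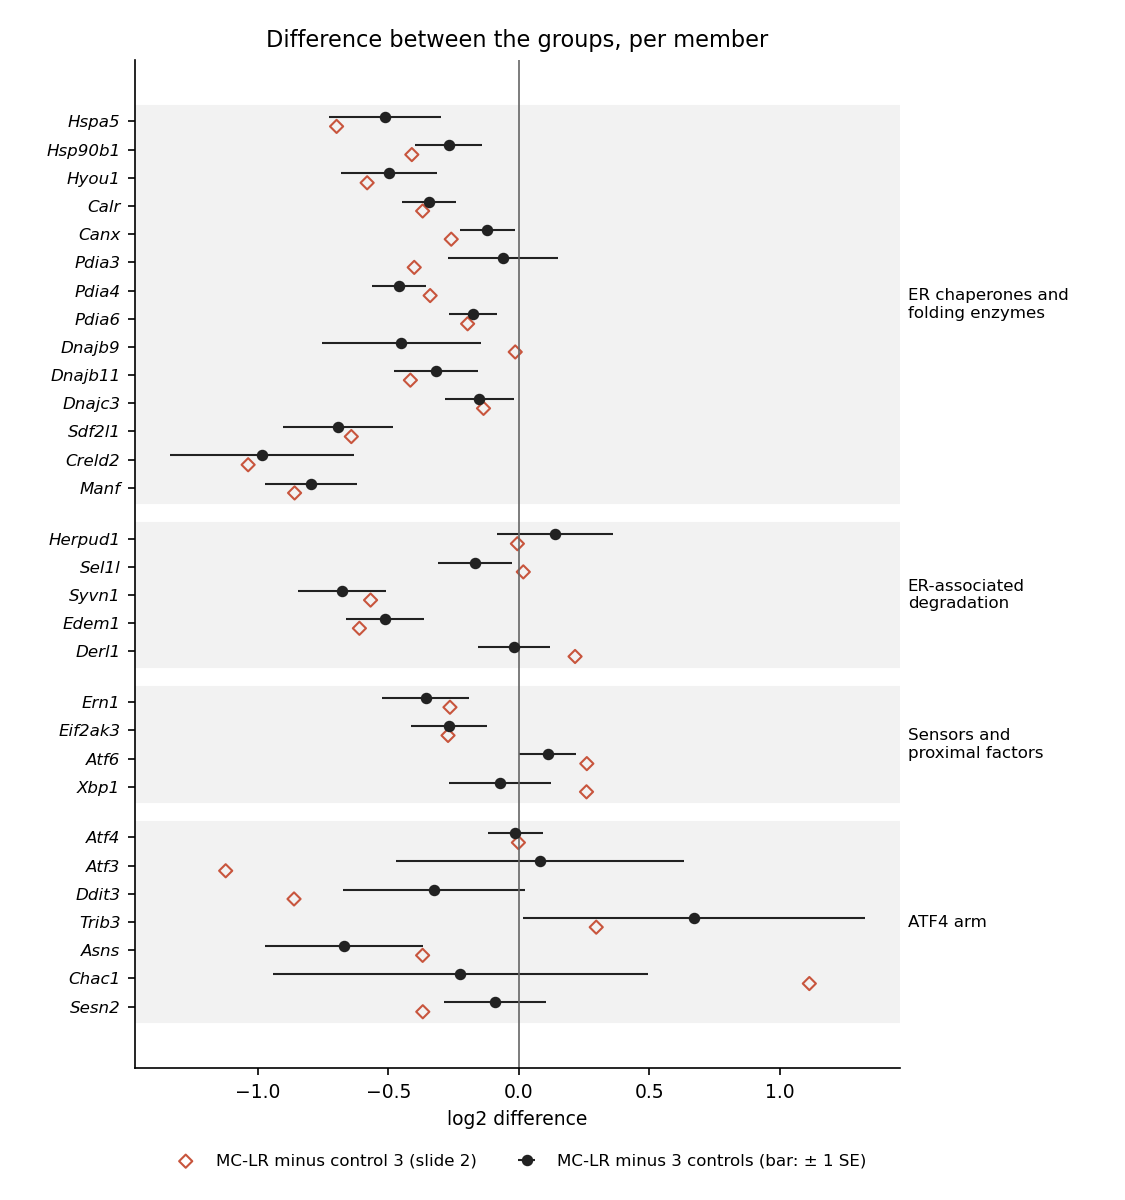
Log2 difference of each member between the groups (x axis), as the mean of MC-LR minus the mean of the 3 controls with bars of 1 SE (filled circles), and minus control 3 alone on slide 2 (open diamonds). All 14 chaperones lie left of 0 by both measures (13 with median scaling).

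The 5 genes of ER-associated degradation split. Syvn1, the ubiquitin ligase HRD1, and Edem1, which extracts misfolded glycoproteins, stood lower, while the channel protein Derl1 and the stress-induced Herpud1 lay near 0. Syvn1 stood at 15.02, 15.26 and 14.98 in the controls and at 14.15, 14.38 and 14.69 with MC-LR. The groups did not overlap, with a difference of -0.68 ± 0.17 (SE; adjusted p = 0.264, limma). Edem1 stood at 12.22, 12.17 and 12.34 against 11.64, 11.54 and 12.01. It too had groups apart, with a difference of -0.51 ± 0.15 (SE; adjusted p = 0.296). Sel1l, the partner of HRD1, differed by -0.17, Derl1 by -0.02 and Herpud1 by 0.14. These 3 had overlapping groups, and with slide as a block they differed by 0.017, 0.22 and -0.0056.

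The sensors and proximal factors gave small differences of both signs, with a median of -0.17 over the 4. Ern1 stood at 9.99, 9.87 and 9.79 in the controls and at 9.74, 9.20 and 9.64 with MC-LR. The groups did not overlap, but MC-LR 1 and control 3 nearly met, and the difference was -0.36 ± 0.17 (SE; adjusted p = 0.428, limma), or -0.19 without MC-LR 2. Eif2ak3 stood at 9.35, 9.33 and 9.35 in the controls, which were nearly equal, and at 8.90, 8.96 and 9.37 with MC-LR. Its MC-LR 3 array lay just above the controls, so the groups overlapped, with a difference of -0.27 ± 0.15 (SE; adjusted p = 0.488).

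Atf6 stood at 10.55, 10.39 and 10.25 in the controls and at 10.53, 10.51 and 10.49 with MC-LR, so the MC-LR values lay inside the range of the controls. Its difference was 0.11 ± 0.11 (SE; adjusted p = 0.700, limma). Xbp1 stood at 11.44, 11.73 and 11.08 against 11.57, 11.24 and 11.22, again with the MC-LR arrays inside the control range. Its difference was -0.07 ± 0.20 (SE; adjusted p = 0.902) and had the opposite sign, 0.26, with slide as a block. The Xbp1 signal does not separate spliced from unspliced mRNA.

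The ATF4 arm varied most from mouse to mouse, and its median log2 difference was -0.09 over 7 genes, 5 of them below 0. In 0 of the 7 were the groups apart, where 9.2% of all genes were apart on the lower side and 11.2% on the higher. Of the 7, 0 had an unadjusted p under 0.05 by limma, where 5.4% of all genes were lower and 7.45% higher. Over 7 genes, a count of 0 lies near these shares. The median SD within the control group was 0.48 over these 7 genes, against 0.12 over the 14 chaperones and 0.19 over all genes tested.

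Atf4 itself, whose protein is set mainly by translation, stood at 10.30, 10.32 and 10.29 in the controls and at 10.20, 10.22 and 10.46 with MC-LR. MC-LR 1 and 2 lay below and MC-LR 3 above the controls, and the difference was -0.01 ± 0.11 (SE; adjusted p = 0.972, limma). Ddit3, which encodes the pro-apoptotic factor CHOP, stood at 8.67, 8.91 and 9.59 against 8.14, 8.85 and 9.21. Its groups overlapped, with a difference of -0.33 ± 0.35 (SE; adjusted p = 0.725) that was -0.030 without MC-LR 1, -0.058 without control 3 and -0.86 with slide as a block. Asns, asparagine synthetase, stood at 8.95, 9.55 and 8.80 against 7.96, 8.41 and 8.91. It had the smallest p of the arm, but MC-LR 3 lay above control 3, and the difference was -0.67 ± 0.30 (SE; adjusted p = 0.421), or -0.37 with slide as a block and -0.44 without MC-LR 1.

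Trib3, a pseudokinase that acts downstream of CHOP, was the member furthest above 0. It stood at 8.57, 9.74 and 9.72 in the controls and at 10.68, 10.74 and 8.61 with MC-LR. MC-LR 1 and 2 lay above every control, whereas MC-LR 3 lay with control 1. The difference was 0.67 ± 0.66 (SE; adjusted p = 0.697, limma), and leaving out 1 array gave 0.29 (without control 1) to 1.37 (without MC-LR 3). Chac1, which degrades glutathione, differed by -0.22 and the stress factor Atf3 by 0.08, both with control 3 far from controls 1 and 2. Chac1 was lowest of all 6 arrays in control 3, at 7.30, and Atf3 highest there, at 8.81. With slide as a block their differences were 1.11 and -1.12, each of opposite sign. Sesn2, a brake on mTORC1 under stress, differed by -0.09.

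**Figure D3:**
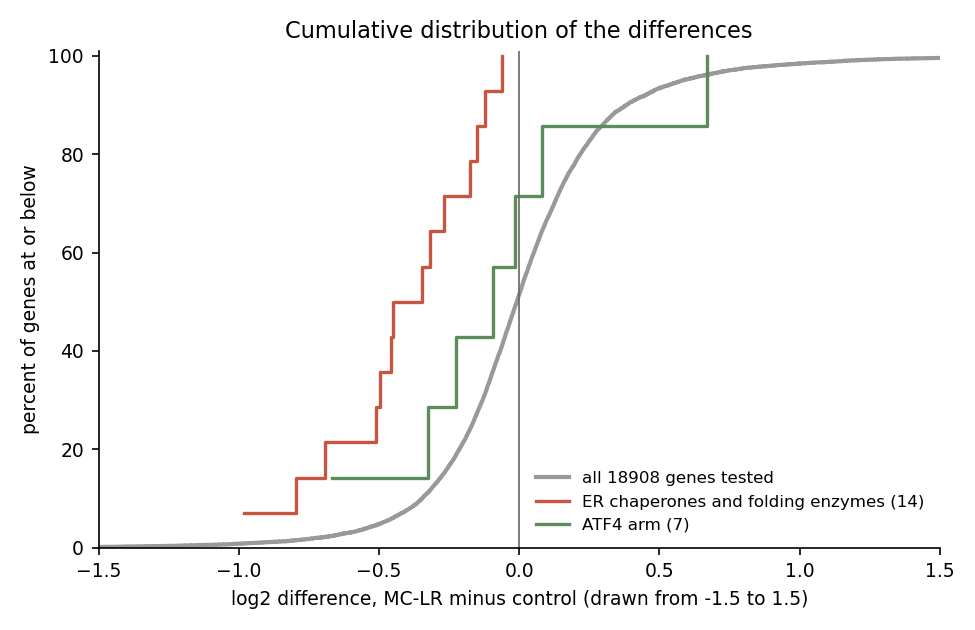
Cumulative percent of genes (y axis) at or below each log2 difference (x axis, MC-LR minus control), for all genes tested (grey), the 14 chaperones (red) and the 7 ATF4 genes (green). The chaperones reach their top step before 0 (Pdia3 lay at 0.033 with median scaling), while the ATF4 genes spread to both sides of 0.

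The MC-LR livers did not share the pattern equally. MC-LR 1 was the lowest of the 6 arrays for 15 members, MC-LR 2 for 7 and MC-LR 3 for 0. Over the 18908 genes tested, the same counts were 2851, 2485 and 3652. MC-LR 3 was the highest of the MC-LR arrays for 22 of the 30 members (73.3%), 12 of the 14 chaperones and 5 of the 5 degradation genes, against 37.5% of all genes tested. Averaged over the 14 chaperones, the log2 deviation from each gene's mean over 6 arrays was 0.10, 0.28 and 0.25 in the controls. The same average was -0.42, -0.26 and 0.06 in MC-LR 1, 2 and 3. Without MC-LR 3, 14 members were lower (5.25% of all genes) and 1 higher at an unadjusted p under 0.05 by limma. In that fit 21 had groups apart on the lower side (15.7% of all genes), and 0 passed the adjusted threshold. The median over the chaperones was then -0.47. MC-LR 3 was singled out from these same values, so leaving it out favours larger counts of lower members. The counts without it are therefore no independent test. Leaving out any other single array gave 6 to 8 members lower at that unadjusted level, against 2.83% to 10.2% of all genes. In those fits 8 to 13 members had groups apart on the lower side.

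MC-LR 3 also stood apart in the cytosolic heat shock genes, a list of 12 chaperones outside the ER. Their average deviation was 1.77 in MC-LR 3, against -1.11 and -0.31 in MC-LR 1 and 2 and -0.42 to 0.06 in the controls. The inducible chaperone gene Hspa1b stood at 11.45 in MC-LR 3 and at 5.12 to 7.84 on the other 5 arrays, and Hspb1 at 14.45 and at 10.17 to 11.60. The part of this difference in the values of the ER members was not tested.

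**Figure D4:**
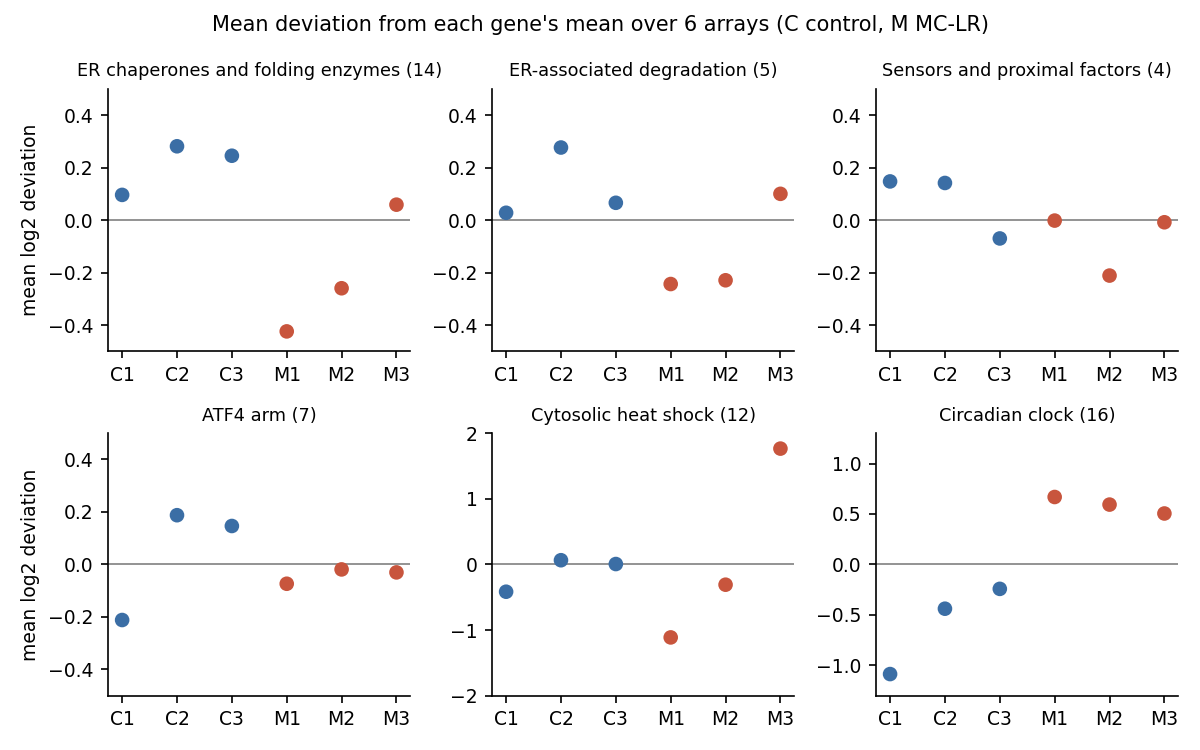
Mean log2 deviation from each gene's mean over the 6 arrays (y axis), for the 4 sets of members and for the cytosolic heat shock and circadian clock lists, with the number of genes in brackets and 1 point per array. The y axes of the last 2 panels span a wider range. M3 stands nearest to the controls in the chaperone panel and far above the other arrays in the heat shock panel.

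Slide 2 alone held both groups, so the members were also read there, as the 3 MC-LR arrays against control 3. All 14 chaperones stayed below 0, with a median of -0.40, and 24 of the 30 members did, where 47.2% of all genes lay below 0. Control 3 lay above all 3 MC-LR arrays for 18 members, 12 of them chaperones, against 29% of all genes. The lone control is assumed to vary like the other arrays, and 1 member, Manf, was lower at an unadjusted p under 0.05 by limma, against 6.24% of all genes. The medians of the degradation genes and of the sensors were close to 0 there, at -0.0056 and -0.0024, while that of the ATF4 arm was -0.37. Slide as a block gives the same differences, with 5 members (Calr, Pdia4, Manf, Edem1 and Atf3) lower at an unadjusted p under 0.05 by limma, against 8.14% of all genes. No member was higher at that level in either fit, where 5.93% of all genes were on slide 2 alone and 7.91% with the block. With the block 0.0793% of all genes passed the adjusted threshold in either direction and 0.0317% on the lower side, and 0 members did.

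Where a member had more than 1 probe, the probes mostly ran the same way. Of 25 further probes in 15 genes, 22 had the sign of the probe used, and the opposite ones belonged to Canx, Derl1 and Sesn2, all 3 with differences of 0.01 to 0.09. The second probe of Hsp90b1 differed by -0.50, those of Syvn1 and Hyou1 by -0.54 and -0.96, and that of Trib3 by 0.59. In Syvn1, Hyou1 and Trib3 this probe was weak, with a mean of 6.0, 6.1 and 6.3 against 14.7, 11.8 and 9.7 for the probe used. The further probes of Edem1 differed by -0.24 and -0.30, against -0.51 for the probe used. Those of Dnajb9 differed by -0.23 and -0.33, against -0.45.

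Every other list of the pathway had a median nearer to 0 than that of the 30 members (-0.27). The lowest of these, -0.11, was further from 0 than that of the ATF4 arm (-0.09). Over 138 further genes tested, 86 lay below 0, with a median of -0.07, and 0 passed the adjusted threshold. At an unadjusted p under 0.05 by limma, 11 were lower and 5 higher, where 5.4% and 7.45% of all genes were. In 26 of the 138 the MC-LR arrays all lay below the controls, against 9.2% of all genes. In 8 they all lay above, against 11.2%.

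Genes of translocation, glycosylation and signal peptide removal had the lowest median of these lists, -0.11 over 26 genes, of which 20 lay below 0. In 9 of the 26 the MC-LR arrays all lay below the controls, as they did in 8 of the 30 members, and in 0 all above. Ostc, a subunit of the oligosaccharyltransferase, differed by -0.46, Stt3b, its catalytic subunit, by -0.27 and the signal peptidase subunit Spcs2 by -0.24. All 3 had groups apart and did not pass, with adjusted p of 0.231, 0.334 and 0.405 by limma. Other folding and redox genes had a median of -0.07 over 23 genes, 17 below 0, but 0.014 within slide 2, with 11 below 0. Among these, Hspa13, Rcn1 and Sdf2 differed by -0.49, -0.34 and -0.20, all with groups apart and none passing. Other degradation genes had a median of -0.05 over 22 genes, 14 below 0, with Aup1 at 0.24, Selenok at -0.28 and Ubxn4 at -0.27.

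Other sensors and ER-bound factors had a median of -0.01 over 19 genes, and of 0.12 within slide 2. Creb3l2, an ER-bound relative of ATF6, differed by -0.75 ± 0.15 (SE; adjusted p = 0.231, limma), with groups apart. Nfya, a subunit of the factor NF-Y that binds CCAAT, differed by -0.48 and Bax by -0.48, and neither passed. The eIF2 alpha kinases and phosphatases had a median of -0.01 over 15 genes. There Ppp1r15b, a constitutive subunit of the eIF2 alpha phosphatase, differed by 0.38, Eif2ak2 by -0.43 and Eif2ak1 by 0.26.

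Other ATF4 targets divided evenly, with 17 of 33 below 0 and a median of -0.01. The glycine transporter Slc6a9 differed by 1.04 ± 0.19 (SE; adjusted p = 0.218, limma), with all MC-LR arrays above the controls. Gdf15, a stress-induced hormone, differed by -1.39 ± 0.31 (SE; adjusted p = 0.244), and the threonyl-tRNA synthetase gene Tars by -0.88 ± 0.22 (SE; adjusted p = 0.269), both with all MC-LR arrays below.

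Read against the promoters shown above, the 8 members with an ERSE all lay below 0, with a median of -0.31 and a range from -0.98 to -0.12. The 18 members with a window and no ERSE had a median of -0.25, with 15 below 0, so the 2 groups of members lay close together. Outside the list, 12 further genes with an ERSE were tested, of which 9 lay below 0, with a median of -0.15 that was -0.017 within slide 2. The 5 members with the ATF4 core, 4 of them of the ATF4 arm, ran from -0.67 to 0.67. Of these, 2 lay below 0, and their median was 0.08. The 21 members with a window and without that core all lay below 0, with a median of -0.32. Within slide 2 the 2 medians were -0.0056 and -0.37. Outside the list, 369 genes with the core were tested, of which 196 lay below 0, with a median of -0.01.

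Lists of other processes were read on the same arrays. Over 16 circadian clock genes the median difference was 1.12, and their average deviation was -1.09, -0.44 and -0.24 in the controls and 0.67, 0.59 and 0.51 with MC-LR. Dbp, a clock output factor, stood at 9.86, 12.77 and 14.21 in the controls and at 15.84, 15.81 and 14.27 with MC-LR. The repressor Ciart was not well above background on 2 of the 3 controls, so its difference, 5.65 as deposited and 2.03 with normexp, has no settled size. In the fasting and feeding list, with a median of 0.18 over 11 genes that was -0.15 within slide 2, Thrsp differed by 3.42 and Igfbp1 by -2.37. In the immediate early list, with a median of -0.33 over 12 genes, Egr1 differed by -1.03, with overlapping groups, and Btg2 by -0.66. None of these passed the adjusted threshold, and their part in the members' values was not tested.

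Hepatocyte markers named the tissue, with 7 of 7 measured markers well above background on all 6 arrays and a median difference of 0.01. Their summed level, as log2 of the summed signal, ran from 18.97 to 19.07 in the controls and was 19.08 on each MC-LR array. Pancreatic acinar and plasma cells are also rich in ER chaperones. Acinar markers were low, at 9.58 to 9.96 in the controls and 9.52 to 9.78 with MC-LR, with 5 of 7 tested below 0 and Cela2a and Pnlip well above background on 0 arrays. B and plasma cell markers summed to 12.22 to 13.23 against 12.16 to 13.17, with 7 of 9 below 0. Their median difference was -0.23, or -0.03 without control 3 and -0.56 within slide 2. This list includes Derl3, an ER-associated degradation gene with an ERSE, so it is not independent of the pathway. The ranges of both lists overlapped between the groups.

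Markers of the non-parenchymal cells were read in the same way. All 10 Kupffer cell and macrophage markers lay below 0, with a median of -0.34 and sums of 15.77 to 16.49 against 15.30 to 15.95. All 10 endothelial markers did too, with a median of -0.36 and sums of 14.64 to 15.18 against 14.47 to 14.83. Stellate cell and fibroblast markers lay below 0 in 9 of 10 cases, with sums of 15.92 to 16.33 against 15.84 to 16.17. Cholangiocyte markers did so in 4 of 7, with sums of 12.84 to 13.72 against 12.22 to 13.52. Markers of T cells, NK cells and neutrophils did so in 5 of 9, with 13.06 to 13.82 against 12.10 to 13.41. Without control 3 the Kupffer cell median was -0.15, and those of the stellate cell, cholangiocyte and T, NK and neutrophil lists were 0.08, 0.20 and 0.20. Within slide 2 the endothelial list had 5 of 10 markers below 0, with a median of -0.11. The Kupffer cell median was further from 0 there, at -0.86. So were those of the stellate cell, cholangiocyte and T, NK and neutrophil lists, at -0.49, -0.67 and -0.62. None of these markers passed the adjusted threshold by limma, and the part of the cell types in the members' values was not tested.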

How the data were processed

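Liver RNA of 3 control and 3 MC-LR mice was measured on 6 single-colour Agilent arrays. Spot intensity was extracted by the authors; the submitters' processing notes name Agilent Feature Extraction 10.7, and the series' design text names quantile normalization in GeneSpring. The deposited log2 values were used as given. They correlated at 0.998 to 1.00 with the log2 processed intensity of the same array, and every column had a median of 5.94. On each array 64.9% to 73.7% of spots were well above background.

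Of 41174 probes, 28507 passed the background check throughout 1 group or both, that is on its 3 arrays. Each gene took its kept probe with the highest mean, giving 18908 genes. Probes were named through accessions in a RefSeq gene table of GRCm38.p6 (27619), through symbols or synonyms (6109), or as the file names them (7446). Probe positions are those of mm9, per the file headers.

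The test between groups was that of limma 3.58.1 (R 4.3.3), two-sided, adjusted by Benjamini-Hochberg across the 18908 genes, and 0.05 was the threshold. On simulated data for this comparison (18908 genes, 200 changed, 5 runs), 54.8% of log2 changes of 1 and 91% of changes of 2 were recovered, and 5.59% of calls were false. The simulated noise was normal and independent between arrays, without a slide effect, so these rates do not cover the overlap of slide and group. The members and lists were chosen with earlier results of these data known. Values on every array are given for members whose groups lie apart, for the 2 with the smallest p in each arm, and always for Hspa5, Xbp1, Atf6, Ern1, Eif2ak3, Atf4 and Ddit3. Up to 3 genes of each other pathway list, by p, and 2 of each context list, by size of difference, are named.

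Alternatives were recomputed quantile normalization, scaling to the median or the 75th percentile, normexp, no filter and a stricter one, the mean of probes, a block for slide or for replicate number, slide 2 alone, another variance model, and leaving out each array. Same-numbered arrays deviated together with r of 0.18, -0.32 and -0.19, so the numbers were not taken as pairs. Erythroid markers are not reported here.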

Additional observations from a re-analysis of the deposited data

How the results depend on the processing

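With 3 arrays a group, 0 members passed the adjusted threshold under any setting run. Across these settings 19 members kept a negative and 2 (Atf6 and Trib3) a positive difference. Members below 0 numbered 23 to 27, where 46.0% (median scaling) to 54.7% (no filter) of all genes lay below 0. The chaperone median ran from -0.47 to -0.26. The number of genes past the threshold, 3 in the reported fit, was 1 with 75th percentile scaling, median scaling, normexp or the filter on all 6 arrays, and 5 with no filter. It was 15 with slide as a fixed block, 0 on slide 2 alone (2301 at an unadjusted p under 0.05 by limma), and 1 to 50 when each array was left out, with 50 without control 3. With the replicate number as a block it was 0 (1843 at an unadjusted p under 0.05 by limma), and 8 members were lower at that unadjusted level, against 4.04% of all genes.

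With slide as a fixed block, and equally on slide 2 alone, the medians of the degradation genes, sensors and ATF4 arm were -0.0056, -0.0024 and -0.37. Herpud1 was then -0.0056, Sel1l 0.017, Derl1 0.22, Xbp1 0.26, Atf3 -1.12 and Chac1 1.11. With slide as a random block Derl1 was 0.080, Xbp1 0.068, Atf3 -0.43 and Chac1 0.34. Derl1 was 0.017 and Atf4 0.00016 with 75th percentile scaling, Pdia3 0.033, Derl1 0.051 and Atf4 0.034 with median scaling, and Atf4 0.023 with normexp. Leaving out each array gave -0.26 to -0.047 for the degradation median. It gave -0.058 to 0.26 for Herpud1, -0.14 to 0.069 for Derl1, -0.22 to 0.68 for Atf3, -0.24 to 0.082 for Xbp1, -0.89 to 0.27 for Chac1, -0.26 to 0.11 for Pdia3, -0.25 to 0.046 for Sesn2 and -0.096 to 0.032 for Atf4. Members lower at an unadjusted p under 0.05, a count added after seeing the data, numbered 1 (slide 2 alone) to 14 (without MC-LR 3). Over all genes, the share lower at that level by limma ran from 2.83% (without control 1) to 10.2% (without control 3). The cause of these shifts was not tested.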
